A study of Homo sapiens with 18 samples.

Results

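The genes described here are 10 components and feedback regulators of the NF-κB pathway, chosen by symbol. They include the subunit genes NFKB1, RELA, NFKB2 and RELB and the IκB genes NFKBIA and NFKBIE. The others are TNFAIP3, TNIP1 and BIRC3, which act in ubiquitin signalling, and the TNF-inducible gene TNFAIP2. These 10 genes are among the 60642 genes listed in the count tables. All 10 were among the 15298 genes with enough counts to be tested. RNA was sequenced from MDA-MB-231, a triple-negative breast cancer cell line with mesenchymal features. The cells were transfected with a siRNA pool against HP1γ (siHP1γ, gene CBX3), against PRMT5 (siPRMT5) or of non-specific sequence (siNS). They were then given 100 nM dexamethasone (Dex, a synthetic glucocorticoid) or its vehicle ethanol (Eth) for 8 h. Each of the 6 groups, siNS Eth, siNS Dex, siHP1γ Eth, siHP1γ Dex, siPRMT5 Eth and siPRMT5 Dex, had 3 libraries, described by the study as biological replicates. Every group was transfected, each target was depleted with 1 pool, and 1 cell line was used.

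NF-κB proteins act as dimers. In the canonical branch, RELA (p65) pairs with p50, the product of NFKB1, and is held in the cytoplasm by IκB proteins until the IKK kinases mark these for destruction. In the non-canonical branch, RELB pairs with p52, the product of NFKB2. Active dimers raise the expression of their own inhibitors: IκBα (NFKBIA) and IκBε (NFKBIE) capture the dimers, while A20 (TNFAIP3), with its partner ABIN-1 (TNIP1), removes and edits the ubiquitin chains through which TNF and IL-1 receptors signal. BIRC3 encodes cIAP2, a ubiquitin ligase of the TNF receptor complex that blocks cell death, and TNFAIP2 is a target of TNF signalling. Glucocorticoids signal through the glucocorticoid receptor (GR), which restrains NF-κB in many tissues, and NFKBIA and TNFAIP3 are known as glucocorticoid-induced genes in several cell types. HP1γ binds methylated histone tails, and PRMT5 methylates arginines on histones and other proteins.

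The promoters of these genes are shown because NF-κB is known to drive several of its own inhibitors. Promoters in the RefSeq table for GRCh38.p14 (250 bases before to 50 after each start) were given for 8 of the 10 genes and searched on both strands for the κB consensus. NFKBIE and RELB had no entry. Of 13 promoters of these genes, 7 held a match, in 6 genes, against 5.91% of all 34796 promoters of the same length. Matches lay in the promoters of NFKBIA, NFKB1, NFKB2, TNFAIP3, TNIP1 and BIRC3, with 0 in those of RELA and TNFAIP2. The following stretches, 5′ to 3′ on the gene's own strand, carry the matches in capitals, which overlap each other at the first NFKB2 start.
NFKBIA, chr14:35404791-35404860, minus strand: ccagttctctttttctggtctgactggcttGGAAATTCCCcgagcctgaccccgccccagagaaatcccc
BIRC3, chr11:102317255-102317388, plus strand: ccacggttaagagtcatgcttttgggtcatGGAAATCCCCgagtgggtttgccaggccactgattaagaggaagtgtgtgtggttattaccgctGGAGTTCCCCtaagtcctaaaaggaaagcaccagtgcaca
TNFAIP3, chr6:137867188-137867217, plus strand: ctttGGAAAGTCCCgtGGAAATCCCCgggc
NFKB2, chr10:102394462-102394490, plus strand: aaacgtcatGGGAATTCCCCcctccgggg

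The NFKBIA match starts 81 bases before the start of transcription. The first BIRC3 match and the second TNFAIP3 match have the same letters. A palindromic GR element, GNACANNNTGTNC, was found in 0.391% of all promoters and in 0 of the promoters of these genes. With so low a share, 0 matches in 13 promoters carries no information on GR control of these genes. A match is a description of the letters and not a measured binding site, and binding was not analysed here. In GENCODE 44 the 10 genes are protein-coding. RELA, TNFAIP3, TNIP1, BIRC3 and TNFAIP2 each overlap a gene on the opposite strand (RELA-DT and WAKMAR2 for the first pair), and the strand setting of the counting is not given in the sources used here. For TNIP1 the overlapping gene spans no annotated exon of TNIP1. If strands were not separated in counting, reads from the overlaps with RELA, TNFAIP3, BIRC3 and TNFAIP2 cannot be told apart. The levels of these genes are therefore less certain.

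The libraries held 8682992 to 12472381 counts. Levels are given as CPM, the counts of a gene relative to the library's total after TMM scaling, in the order of libraries 1, 2 and 3. The smallest count of any of the 10 genes in a library was 80 for RELB, and the largest was 4627 for BIRC3, so RELB has the largest relative counting error. The targets checked the labels: mean PRMT5 was 249 CPM in siNS Eth and 7.41 CPM in siPRMT5 Eth, and mean CBX3 was 256 CPM in siNS Eth and 9.89 CPM in siHP1γ Eth. PRMT5 was also lower in siHP1γ than in siNS cells, by −0.25 (log2, Eth) and −0.35 (log2, Dex). The mesenchymal markers VIM, CD44, AXL, CAV1 and MSN were abundant (summed 8416 to 12620 CPM), and 4 of the 5 were lower than in siNS in each siHP1γ comparison. AXL, a receptor kinase of mesenchymal cells, averaged 963 CPM in siNS Eth and 221 CPM in siPRMT5 Eth, and 830 and 189 CPM with Dex. Of the luminal markers, ESR1, PGR and CDH1 were near 0, while GATA3 (5.18 CPM on average), FOXA1 (7.39 CPM) and EPCAM (11.1 CPM) were present. The 6 luminal markers summed to 16.23 to 30.44 CPM, with all siHP1γ libraries (27.0 CPM or more) above the others. The leukocyte marker PTPRC was near 0 and CD68 averaged 2.001 CPM. The endothelial markers PECAM1, KDR and CDH5 summed to 3.091 to 4.281 CPM in siNS Eth and 11.43 to 12.31 CPM in siNS Dex, and to 19.65 to 22.63 CPM in siPRMT5 Dex. The part of these markers in the results was not tested. Changes in cell number and in RNA per cell cannot be told apart in bulk RNA. For single genes the exact permutation test of 3 libraries against 3 cannot give a two-sided p below 0.1, so the tests reported are edgeR's quasi-likelihood tests over all 15298 genes with Benjamini-Hochberg adjustment.

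To ask how the hormone alone acted on the pathway, Dex was compared with Eth in siNS cells. Dex raised NFKBIA, TNFAIP3 and BIRC3, and none of the subunit genes passed the test. These were 3 of 10 genes at an adjusted p below 0.01 with a change of 1.5-fold or more, where 2.71% of all tested genes were called, and 3 rose and 0 fell. At an adjusted p under 0.05 with no fold limit, 4 of 10 were called against a background of 9.16%. The median log2 fold change of the 10 genes was 0.12, against 0.00 over all tested genes.

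BIRC3, encoding the cell death inhibitor cIAP2, read 36.1, 32.4 and 32.8 CPM in siNS Eth and 219.8, 245 and 248 CPM in siNS Dex. The groups lay far apart, with every Dex library above every Eth library. The 7.04-fold rise corresponded to a log2 fold change of 2.82 ± 0.12 (SE, adjusted p = 1e-15). NFKBIA, encoding IκBα, read 37.9, 33.0 and 35.7 CPM with Eth and 93.2, 83.6 and 88.1 CPM with Dex. It rose 2.49-fold in siNS cells (log2 fold change 1.31 ± 0.09, SE, adjusted p = 1.87e-11), without overlap. TNFAIP3, encoding A20, read 17.99, 20.8 and 16.1 CPM with Eth and 36.2, 36.9 and 37.1 CPM with Dex. Its 2.01-fold rise (log2 1.01 ± 0.10, SE, adjusted p = 2.72e-08) again separated the groups. TNIP1, the partner of A20, stood at 138, 163 and 152 CPM with Eth and 202, 210.4 and 201 CPM with Dex. This 1.35-fold difference was past the rule without a fold limit only (log2 0.43 ± 0.09, SE, adjusted p = 0.00204).

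**Figure D1:**
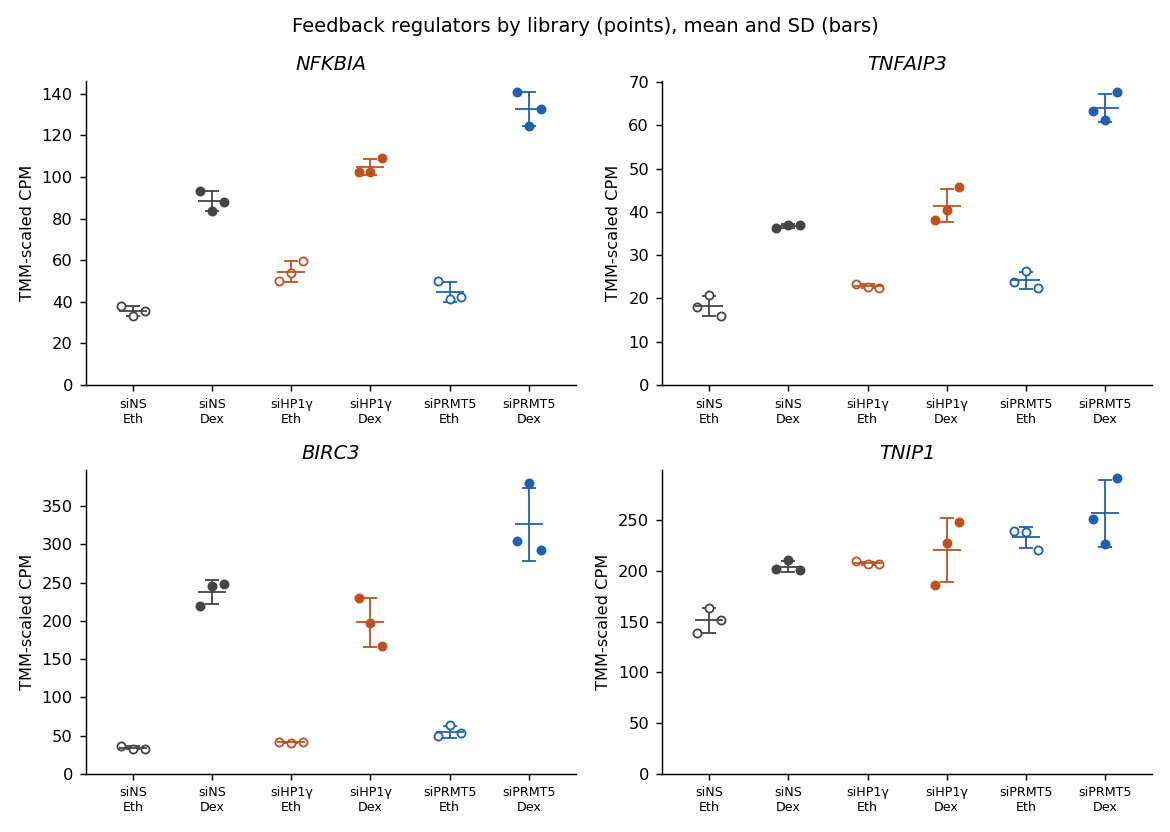
TMM-scaled CPM (y axis, from 0) of NFKBIA, TNFAIP3, BIRC3 and TNIP1 in the 6 groups (x axis). Points are single libraries (open, Eth; filled, Dex), and bars show the mean and SD of 3 libraries. For NFKBIA, TNFAIP3 and BIRC3, every Dex library lies above every Eth library of all 3 siRNAs, and siPRMT5 Dex is highest.

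The subunit genes moved little with Dex in siNS cells. NFKB1 averaged 54.5 ± 3.29 CPM with Eth and 53.7 ± 1.53 CPM with Dex (SD, n = 3), a log2 difference of −0.02 with a 95% interval from −0.18 to 0.15. RELA averaged 99.8 ± 1.85 and 111 ± 10.3 CPM (SD, n = 3), and the groups overlapped. NFKB2, encoding the p52 precursor, was 29.0, 37.8 and 33.9 CPM with Eth and 28.1, 22.8 and 27.6 CPM with Dex. Its groups did not overlap, but the log2 difference of −0.36 ± 0.12 (SE) did not pass (adjusted p = 0.064). RELB, at 11.2 ± 2.31 CPM with Eth and 9.53 ± 0.740 CPM with Dex (SD, n = 3), differed by less than the spread between libraries. NFKBIE and TNFAIP2 did not pass either, at log2 differences of −0.26 and 0.08.

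In cells depleted of HP1γ or PRMT5, Dex again raised NFKBIA, TNFAIP3 and BIRC3. In siHP1γ cells 3 of 10 genes were called where 1.67% of all genes were, and without a fold limit 4 of 10 against 5.55%. The gene added without the fold limit was NFKB2, which fell. In siPRMT5 cells 5 of 10 were called where 5.44% of all genes were, and without a fold limit 7 of 10 against 16%. The additional genes in siPRMT5 cells fell: NFKBIE and NFKB2 under the main rule, and RELB and TNFAIP2 without the fold limit. TNIP1 passed neither rule in depleted cells. Its Dex response was 0.09 in siHP1γ cells (log2, adjusted p = 0.679) and 0.14 in siPRMT5 cells (0.357).

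BIRC3 rose in siHP1γ cells from 41.8, 40.7 and 41.3 CPM to 231, 198 and 167 CPM, a log2 fold change of 2.27 ± 0.11 (SE, adjusted p = 1.01e-13). In siPRMT5 cells it rose from 48.8, 64.0 and 52.7 CPM to 305, 380.4 and 293 CPM (log2 2.57 ± 0.11, SE, adjusted p = 2.06e-15). Replicate 1 was the highest siHP1γ Dex library for BIRC3, and replicate 2 the highest siPRMT5 Dex library. NFKBIA rose from 49.9, 53.9 and 59.7 to 102, 102 and 109 CPM in siHP1γ cells, by 1.92-fold (adjusted p = 9.22e-09). It rose from 50.1, 41.3 and 42.5 to 141, 124 and 133 CPM in siPRMT5 cells, by 2.97-fold (adjusted p = 1.73e-13). All siPRMT5 Dex libraries lay above every other library for NFKBIA. TNFAIP3 went from 23.4, 22.6 and 22.5 to 38.3, 40.4 and 45.7 CPM in siHP1γ cells (1.81-fold, adjusted p = 3.7e-07). In siPRMT5 cells TNFAIP3 went from 23.7, 26.3 and 22.5 to 63.3, 61.3 and 67.7 CPM (2.65-fold, adjusted p = 7.13e-12). At a fold limit of 2 in place of 1.5, NFKBIA and TNFAIP3 were not called in siHP1γ cells.

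**Figure D2:**
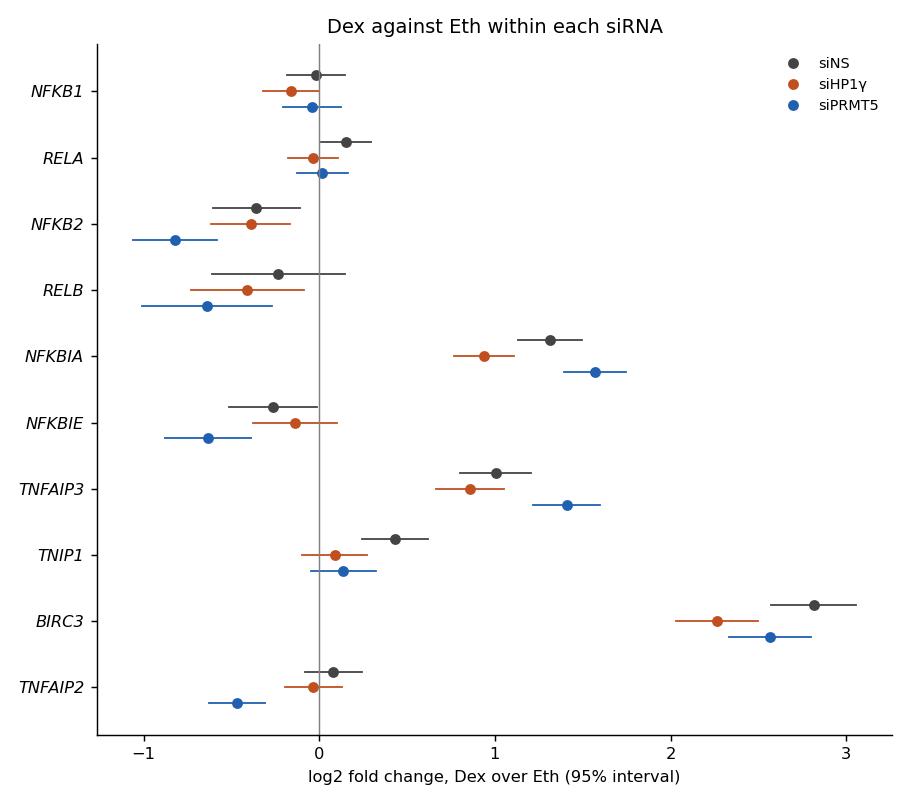
Log2 fold change of Dex over Eth (x axis) for the 10 genes (y axis, ordered by role) in siNS, siHP1γ and siPRMT5 cells. Points are estimates and lines 95% intervals from the fit over 18 libraries. BIRC3 (2.27 to 2.82), NFKBIA (0.94 to 1.57) and TNFAIP3 (0.86 to 1.41) lie right of 0 in all 3, and NFKB2 lies left of 0 in all 3.

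The decreases in siPRMT5 cells were in the non-canonical subunit genes, IκBε and TNFAIP2. NFKB2 fell from 54.6, 53.9 and 47.7 CPM with Eth to 32.1, 26.7 and 29.8 CPM with Dex, 1.77-fold (log2 −0.82 ± 0.12, SE, adjusted p = 6.98e-06). In siHP1γ cells NFKB2 was 60.7, 59.5 and 59.7 CPM with Eth and 37.0, 48.0 and 52.7 CPM with Dex (log2 −0.39, adjusted p = 0.0332, past the rule without a fold limit only). NFKBIE went from 41.7, 38.5 and 35.7 to 28.1, 22.9 and 23.8 CPM in siPRMT5 cells (1.55-fold lower, adjusted p = 0.000289). The NFKBIE fold change fell below 1.5, ending the call, without siPRMT5 Eth replicate 1 (log2 −0.58) or without siPRMT5 Dex replicate 2 (log2 −0.57). RELB went from 14.2, 14.7 and 13.2 to 8.699, 7.89 and 10.6 CPM in siPRMT5 cells (log2 −0.64 ± 0.18, SE, adjusted p = 0.0141). RELB came under the 0.01 threshold with DESeq2 (adjusted p = 0.00724), with only the compared libraries (0.00414), with no count filter (0.000364), and without siHP1γ Dex replicate 1 (0.00247) or replicate 3 (0.00808).

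Whether a Dex response itself differed between siRNAs was tested as an interaction. Against siNS, the response differed in siPRMT5 cells for 1 of 10 genes where 3.8% of all genes were called, and in siHP1γ cells for 0 of 10 where 0.399% were called. The gene was TNFAIP2. It read 55.7, 62.4 and 61.2 CPM in siNS Eth and 63.7, 60.4 and 65.4 CPM in siNS Dex, with overlapping groups. In siPRMT5 cells it read 95.9, 87.3 and 92.7 CPM with Eth and 66.0, 63.4 and 70.5 CPM with Dex. The siPRMT5 Eth libraries stood above all others, whereas with Dex the siPRMT5 and siNS groups overlapped, at a difference of 0.07 (log2, 95% interval from −0.09 to 0.24). The difference between the Dex responses was −0.55 ± 0.11 (log2, SE, adjusted p = 0.00476). For the other genes that fell with Dex in siPRMT5 cells, the interaction did not pass. The estimates were −0.46 for NFKB2 (log2, adjusted p = 0.121), −0.37 for NFKBIE (0.23) and −0.41 for RELB (0.412).

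Among the induced genes, the interaction estimates did not pass the threshold. For TNFAIP3 the response in siPRMT5 cells exceeded that in siNS cells by 0.40 (log2, 95% interval from 0.12 to 0.68, adjusted p = 0.095). For BIRC3 the response in siHP1γ cells was −0.55 relative to siNS (95% interval from −0.88 to −0.22, adjusted p = 0.103). It passed without siHP1γ Dex replicate 1 (−0.67, adjusted p = 0.0478) and without a count filter (−0.57, adjusted p = 0.00213). For NFKBIA the corresponding value in siHP1γ cells was −0.37 (95% interval from −0.62 to −0.13, adjusted p = 0.128). For TNIP1 the estimates relative to siNS were −0.34 in siHP1γ cells (adjusted p = 0.173) and −0.30 in siPRMT5 cells (0.202). At an adjusted p under 0.05, edgeR and DESeq2 each called 0 of the 10 genes in the siHP1γ interaction. At an unadjusted p under 0.05, edgeR placed 3 of 10 there, NFKBIA, TNIP1 and BIRC3, against 17.2% of all genes. In the siPRMT5 interaction 6 of 10 stood under that unadjusted p, against 19% of all genes, and they went in both directions. NFKBIA (0.25) and TNFAIP3 (0.40) had higher estimates than in siNS. NFKBIE, NFKB2, TNIP1 and TNFAIP2 had lower ones (−0.55 to −0.30, log2). Only TNFAIP2 passed after adjustment.

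Depletion was then compared with siNS at each treatment. The 2 Eth comparisons share the siNS Eth libraries and the 2 Dex comparisons share the siNS Dex libraries. Without Dex, HP1γ depletion raised 7 of 10 genes and lowered 0, where 31.8% of all genes were called in either direction, and the median log2 difference of the 10 genes was 0.31 against 0.01 over all genes. PRMT5 depletion also raised 7 of 10 and lowered 0 without Dex, where 42.1% of all genes were called, with a median of 0.39 against 0.00. With Dex, HP1γ depletion raised 3 of 10 (24% of all genes called) and PRMT5 depletion raised 4 of 10 (42.4% of all genes called), and 0 were lowered in each. The shares with Dex were near those of all genes. Under scaling by library size alone the HP1γ comparison with Dex called 5 of 10, adding NFKB1 and TNFAIP3, and the share of higher genes among all called genes moved from 48.7% to 69.2% with Dex and from 52.1% to 63.8% without.

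The subunit genes responded to HP1γ depletion. NFKB2 read 29.0, 37.8 and 33.9 CPM in siNS Eth and 60.7, 59.5 and 59.7 CPM in siHP1γ Eth, a 1.78-fold rise (log2 0.83 ± 0.11, SE, adjusted p = 3.82e-06). RELB, its dimer partner, rose from 8.94, 13.6 and 11.1 to 17.8, 19.8 and 23.6 CPM, by 1.82-fold (log2 0.87 ± 0.17, SE, adjusted p = 0.000248). Neither gene's groups overlapped. With Dex the rises were 1.74-fold for NFKB2 (adjusted p = 1.19e-05) and 1.61-fold for RELB (adjusted p = 0.00432), with siHP1γ Dex replicate 1 lowest for both, at 37.0 and 10.9 CPM. Without Dex the canonical subunits rose less: RELA by 1.20-fold (adjusted p = 0.00456), from 97.7, 101 and 100.5 to 121, 115 and 125 CPM, and NFKB1 by 1.21-fold (adjusted p = 0.00799), from 57.8, 51.3 and 54.3 to 70.1, 60.1 and 68.1 CPM. NFKB1 lost the call without siHP1γ Eth replicate 1 (adjusted p = 0.0571). With Dex neither RELA nor NFKB1 passed in siHP1γ cells.

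**Figure D3:**
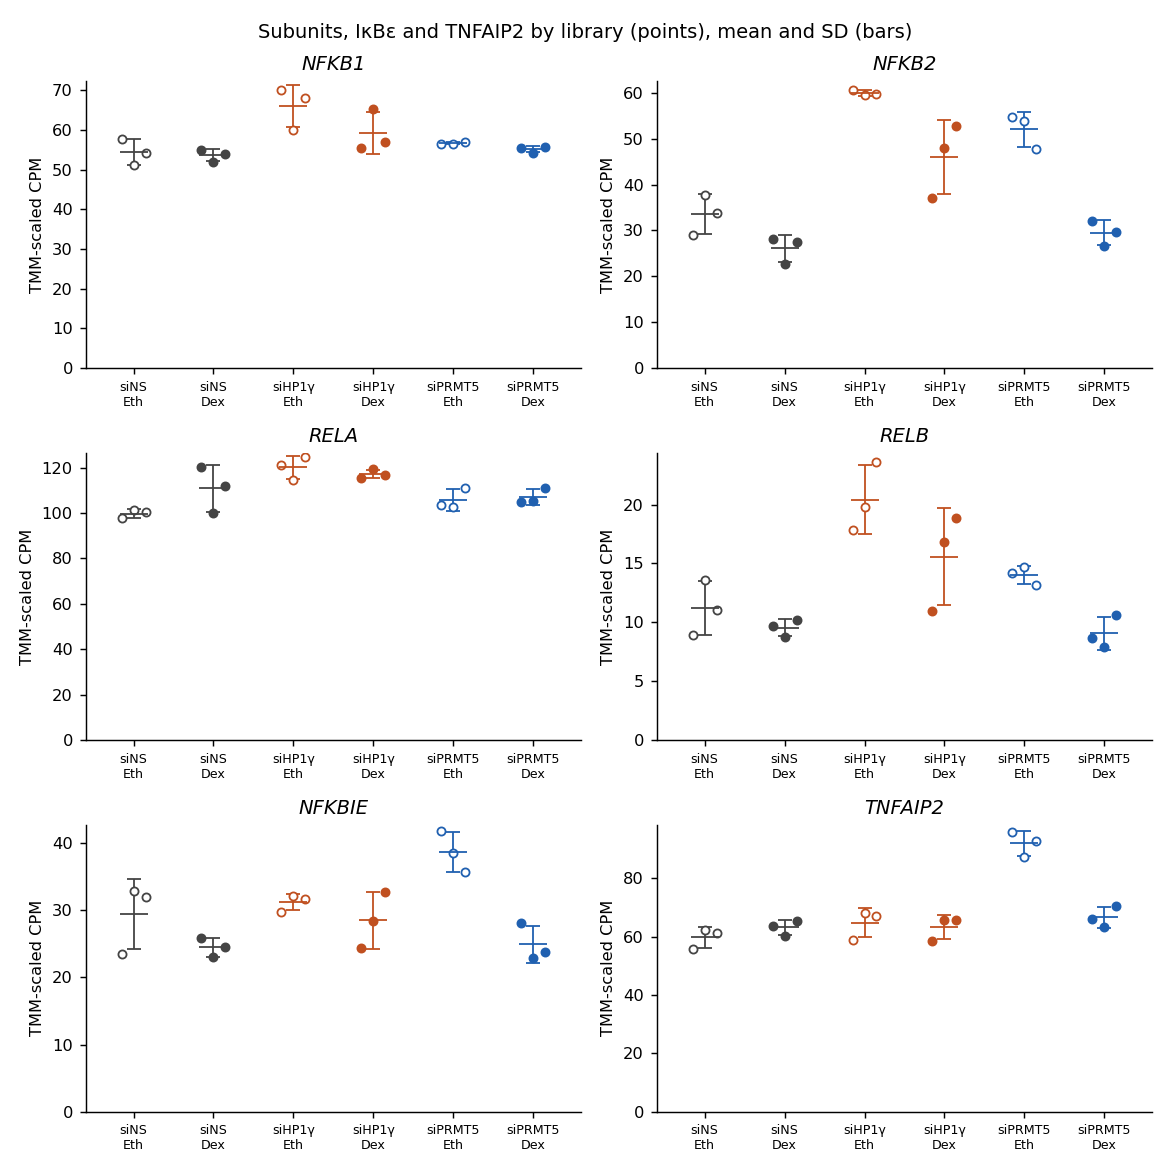
TMM-scaled CPM (y axis, from 0) of NFKB1, NFKB2, RELA, RELB, NFKBIE and TNFAIP2 in the 6 groups (x axis). Points are single libraries (open, Eth; filled, Dex), and bars show the mean and SD of 3 libraries. On average NFKB2 and RELB are highest in siHP1γ Eth, while NFKBIE and TNFAIP2 are highest in siPRMT5 Eth.

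In siPRMT5 cells without Dex, NFKB2 rose 1.55-fold (adjusted p = 8.38e-05), and RELB differed by 0.32 (log2, 95% interval from −0.05 to 0.68), which did not pass. With Dex, NFKB2 (29.5 CPM on average) and RELB (9.08 CPM) in siPRMT5 cells did not differ beyond the spread from siNS (26.1 and 9.53 CPM), with 95% intervals from −0.08 to 0.42 and from −0.47 to 0.30 (log2). RELA and NFKB1 passed in neither siPRMT5 comparison.

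NFKBIA, TNIP1 and TNFAIP3 were raised by both depletions without Dex. NFKBIA rose 1.54-fold with HP1γ depletion (adjusted p = 8.66e-06) and 1.26-fold with PRMT5 depletion (adjusted p = 0.00493), the latter lost without siPRMT5 Eth replicate 1 (adjusted p = 0.0548). TNIP1 rose from 138, 163 and 152 CPM to 209.5, 206 and 206 CPM in siHP1γ Eth (1.37-fold, adjusted p = 0.000394) and to 239.9, 239 and 221 CPM in siPRMT5 Eth (1.54-fold, adjusted p = 4.34e-06). Both depleted groups lay above every siNS Eth library. TNFAIP3 rose 1.32-fold with PRMT5 depletion (adjusted p = 0.00284) and 1.25-fold with HP1γ depletion (adjusted p = 0.0185). The latter was lost without siNS Eth replicate 1 (adjusted p = 0.0637), siNS Eth replicate 3 (0.168) or siHP1γ Eth replicate 1 (0.0671).

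BIRC3, NFKBIE and TNFAIP2 were past the threshold in siPRMT5 cells without Dex. BIRC3 rose 1.63-fold without Dex (adjusted p = 3.83e-05), whereas in siHP1γ Eth the 1.22-fold difference did not pass (adjusted p = 0.0752), although the groups did not overlap. BIRC3 in siHP1γ Eth passed with library sizes alone as scaling (adjusted p = 0.0254), with no count filter (0.0155), with only the compared libraries (0.0129) and without siHP1γ Dex replicate 1 (0.0472). TNFAIP2 rose 1.54-fold with PRMT5 depletion (log2 0.62 ± 0.08, SE, adjusted p = 4.44e-07) and differed by 0.11 (log2) in siHP1γ Eth. NFKBIE rose 1.31-fold with PRMT5 depletion (adjusted p = 0.0091), a call lost without siNS Eth replicate 1 (adjusted p = 0.0966) or siPRMT5 Eth replicate 1 (0.0512). In siPRMT5 Dex, NFKBIE and TNFAIP2 differed from siNS Dex by 0.02 and 0.07 (log2) and did not pass (adjusted p = 0.913 and 0.476).

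With Dex, the induced genes were higher in siPRMT5 than in siNS cells. They made up 40% of the genes described here, near the 42.4% of all genes called in this comparison. TNFAIP3 was 1.74-fold higher (log2 0.80 ± 0.09, SE, adjusted p = 4.66e-08), NFKBIA was higher by 0.59 (log2, adjusted p = 1.93e-06) and BIRC3 was 1.37-fold higher (adjusted p = 0.000743). TNIP1 was 1.26-fold higher (adjusted p = 0.00437), lost without siPRMT5 Dex replicate 3 (adjusted p = 0.0502). These genes were already higher in siPRMT5 than in siNS cells without Dex. Those differences were 1.32-fold for TNFAIP3, 1.26-fold for NFKBIA, 1.63-fold for BIRC3 and 1.54-fold for TNIP1. For BIRC3 and TNIP1 they were larger than the differences with Dex. None of these genes passed the test for a different Dex response in siPRMT5 and siNS cells. In siHP1γ cells with Dex, NFKBIA was the one induced gene that passed, at 1.19-fold (adjusted p = 0.0285). That call was lost without siNS Dex replicate 2 (adjusted p = 0.136), siNS Dex replicate 3 (0.0771) or siHP1γ Dex replicate 3 (0.0859), and with no count filter (0.0562). BIRC3 was the one induced gene with a lower mean in siHP1γ Dex than in siNS Dex, 198 ± 32.0 against 238 ± 15.7 CPM (SD, n = 3). The groups overlapped and the log2 difference of −0.26 ± 0.10 (SE) did not pass (adjusted p = 0.0671). It passed without siHP1γ Dex replicate 1 (−0.38, adjusted p = 0.00707), without replicate 2 of siPRMT5 Eth (0.0444) or of siPRMT5 Dex (0.0382), and with no count filter (0.0103).

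**Figure D4:**
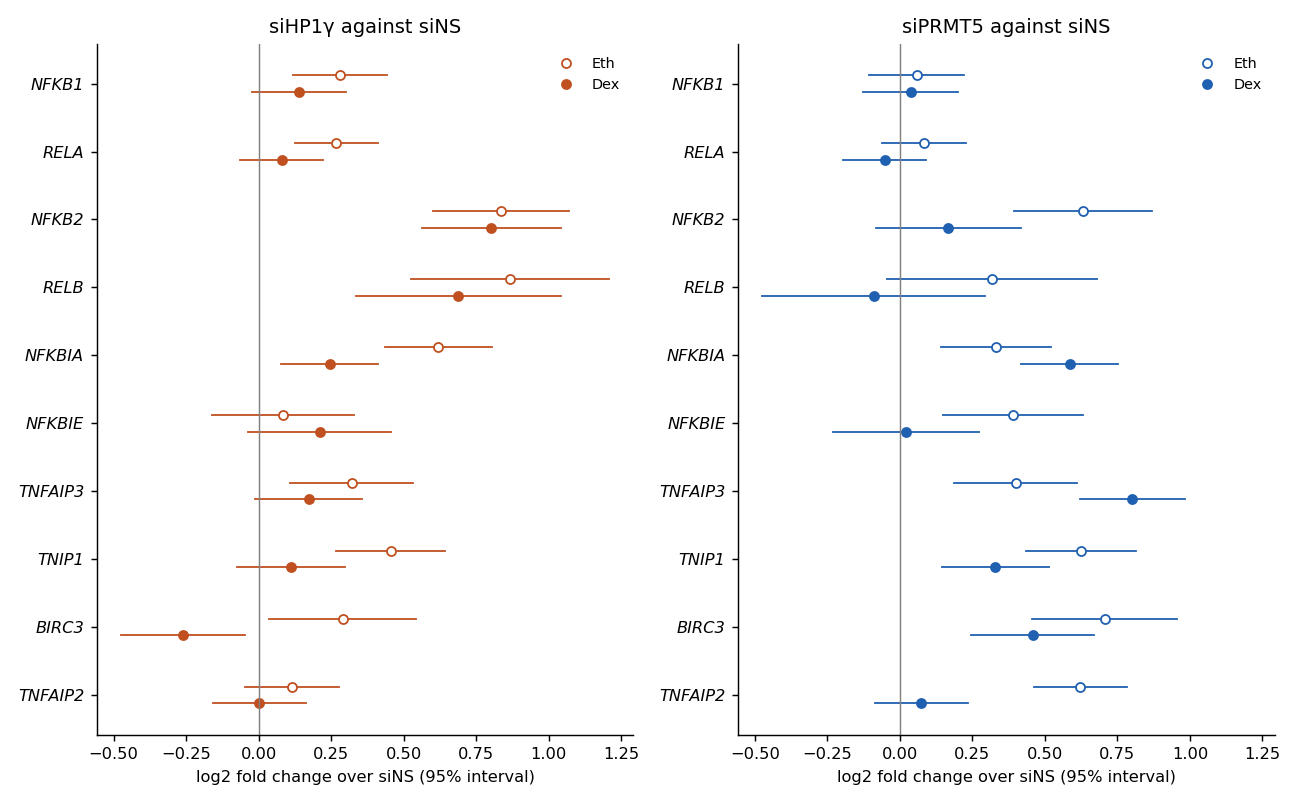
Log2 fold change over siNS (x axis) of the 10 genes (y axis) after HP1γ depletion (left) and PRMT5 depletion (right), with Eth (open) or Dex (filled). Lines are 95% intervals from the fit over 18 libraries. NFKB2 and RELB lie between 0.69 and 0.87 in both siHP1γ comparisons, and TNFAIP2 lies at 0.62 in siPRMT5 Eth and 0.07 in siPRMT5 Dex.

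The depletions were compared directly, siPRMT5 against siHP1γ. With Dex, 6 of 10 genes differed (49.9% of all genes called), 4 higher and 2 lower in siPRMT5 cells, a share near that of all genes. BIRC3 was higher by 0.72 ± 0.10 (log2, SE, adjusted p = 2.24e-06), TNFAIP3 by 0.63 ± 0.09 (adjusted p = 1.17e-06) and NFKBIA by 0.34 ± 0.08 (adjusted p = 0.000949). The groups of these genes did not overlap. NFKB2 was lower, at −0.64 ± 0.12 (adjusted p = 5.81e-05), as was RELB at −0.78 ± 0.17 (adjusted p = 0.000586), also without overlap. TNIP1 (0.22, adjusted p = 0.046) had overlapping groups, and its call was lost when any of 9 libraries was left out: each siHP1γ Eth library, siHP1γ Dex replicates 1 and 2, siNS Dex replicates 1 and 3, and siPRMT5 Dex replicates 1 and 3. The adjusted p was highest without siPRMT5 Dex replicate 3 (0.306) and siHP1γ Dex replicate 1 (0.286). The call was also lost with library sizes alone (0.169) and with only the compared libraries (0.139). NFKBIE, not called, passed without siHP1γ Dex replicate 1 (−0.29, adjusted p = 0.0495).

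Without Dex, 7 of 10 genes differed between the depletions (48.4% of all genes called). NFKBIE (0.31), BIRC3 (0.42) and TNFAIP2 (0.51) were higher in siPRMT5 cells, and NFKBIA (−0.29), NFKB1 (−0.22), RELA (−0.18) and RELB (−0.55) were lower, all on the log2 scale. The count was 4 without siPRMT5 Eth replicate 1, siPRMT5 Eth replicate 2 or siHP1γ Eth replicate 1, and 2 without siHP1γ Eth replicate 3. Single calls were also lost for NFKB1 without siPRMT5 Eth replicate 3 (adjusted p = 0.0519), NFKBIE without siHP1γ Eth replicate 2 (0.0513) and RELA without siNS Eth replicate 3 (0.0578). NFKB1 (0.0764) and RELA (0.115) did not pass with no count filter, nor NFKBIE (0.0635) with library sizes alone. BIRC3 (adjusted p = 0.00516) and TNFAIP2 (adjusted p = 6.18e-06) kept their calls under every alternative run. For NFKBIA the groups overlapped without Dex, and the call was lost without siHP1γ Eth replicate 3 (adjusted p = 0.0743) or siPRMT5 Eth replicate 2 (0.0684).

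The induced genes followed each other across the libraries. Over 18 libraries, Pearson's r of log2 CPM was 0.95 for NFKBIA with TNFAIP3, 0.94 for NFKBIA with BIRC3 and 0.94 for TNFAIP3 with BIRC3, and 0.92 for NFKB2 with RELB. These values are descriptions: the genes share libraries and the groups set most of the spread. After the mean of each group was taken away, r was −0.18 for NFKBIA with TNFAIP3 and −0.49 for NFKBIA with BIRC3, whereas it stayed at 0.82 for NFKB2 with RELB and was 0.88 for NFKB2 with NFKBIE. BIRC3 ran opposite to these within groups, with r of −0.64 for NFKB2, −0.61 for RELB, −0.65 for NFKBIE and −0.70 for TNIP1. In libraries 1, 2 and 3 of siHP1γ Dex, NFKB2 read 37.0, 48.0 and 52.7, RELB 10.9, 16.8 and 18.9, TNIP1 187, 228 and 248, and BIRC3 231, 198 and 167 CPM. What set these libraries apart was not tested.

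Among 11401 other genes averaging 5 CPM or more, the pattern most like that of NFKBIA over 18 libraries was that of IL1R1, the signalling receptor of interleukin-1 (r = 0.978). VSTM2L (r = 0.972) and ADPRHL1 (r = 0.968) followed. IL1R1 averaged 3.43 CPM in siNS Eth and 17.4 CPM in siNS Dex, 7.93 and 26.3 CPM in siHP1γ cells, and 4.78 and 30.1 CPM in siPRMT5 cells. TNFAIP3 was most like CEBPD, a transcription factor gene of the acute-phase response (r = 0.979), and BIRC3 most like CAVIN2, a caveolar coat gene (r = 0.982). NFKB2 was closest to GRK5 (0.953), RELB to GTPBP2 (0.928), TNIP1 to TNKS1BP1 (0.944), TNFAIP2 to CDC42EP4 (0.937), RELA to PACS1 (0.935), NFKBIE to SLC9A3R2 (0.919) and NFKB1 to CREB3L1 (0.84).

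The other genes of the pathway were read from lists, beginning at the receptors. Their counts stand beside the shares of all genes called in the same comparisons, 2.71% with Dex in siNS cells, 42.1% in siPRMT5 Eth and 31.8% in siHP1γ Eth, and nothing is read from a list whose share is near or below these. With Dex in siNS cells 4 of 11 receptor genes rose and 0 fell. IL1R1 rose most (log2 2.34 ± 0.14, SE, adjusted p = 1.94e-12), and TNFRSF1A, the main TNF receptor, rose from 86.4 to 133 CPM (log2 0.62 ± 0.07, SE, adjusted p = 9.38e-08). PRMT5 depletion without Dex raised 5 of 11 receptor genes and lowered 1: TLR4, the receptor for bacterial lipopolysaccharide, went from 15.7 to 34.7 CPM and TNFRSF1A from 86.4 to 145 CPM, and TNFRSF12A from 43.7 down to 29.2 CPM. HP1γ depletion without Dex raised 2 of 11, IL1R1 and LTBR, the lymphotoxin receptor that signals to the non-canonical branch. It lowered 1 of 11, IL1RAP, the co-receptor of IL1R1, from 19.4 to 7.91 CPM.

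Downstream of the receptors, 0 of 12 genes for IKK subunits and upstream kinases changed with Dex in siNS cells, under the rule with or without the fold limit. MAP3K14 encodes NIK, the kinase of the non-canonical branch. It rose from 29.8 to 58.7 CPM in siPRMT5 Eth (log2 0.98 ± 0.11, SE, adjusted p = 7.85e-08) and from 29.8 to 37.8 CPM in siHP1γ Eth (adjusted p = 0.0224). In total 5 of 12 rose and 2 fell in siPRMT5 Eth (42.1% of all genes called), and 5 rose and 0 fell in siHP1γ Eth (31.8%). The same shares apply to the lists that follow in this paragraph. Of 13 adaptor and ubiquitin ligase genes tested, 2 rose and 3 fell in siPRMT5 Eth, led downward by MYD88, the adaptor of Toll-like and IL-1 receptors (58.2 to 30.3 CPM), and TRAF3, which restrains NIK (102 to 59.1 CPM). In siHP1γ Eth 2 of 13 rose and 0 fell, with TRAF1 from 5.38 to 14.9 CPM. Both shares of this list were below those of all genes, and nothing is read from them. Of the 10 deubiquitinases and partners of A20, 4 rose and 2 fell in siPRMT5 Eth, with TNIP2 down from 68.9 to 33.6 CPM, and 5 rose and 0 fell in siHP1γ Eth, with CYLD up from 48.8 to 72.4 CPM. Of the 5 other subunit and IκB genes, 0 were called with Dex in siNS cells, 3 rose in siPRMT5 Eth and 1 rose in siHP1γ Eth, BCL3 being raised in each.

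Of 14 other NF-κB target genes tested, Dex raised 1 and lowered 1 in siNS cells, where 2.71% of all genes were called. Without the fold limit it raised 2 and lowered 1 (9.16% of all genes called). GADD45B rose from 24.8 to 43.7 CPM (adjusted p = 2.35e-06). CXCL8, which encodes the neutrophil attractant interleukin-8, fell from 25.0 to 11.9 CPM (log2 −1.07 ± 0.12, SE, adjusted p = 4.47e-07). HP1γ depletion without Dex raised 9 of 14 and lowered 1, where 31.8% of all genes were called, with a median log2 difference of 0.83 against 0.01 over all genes. ICAM1, a leukocyte adhesion molecule, went from 8.86 to 16.3 CPM and CXCL1 from 6.82 to 12.3 CPM. PRMT5 depletion without Dex raised 4 of 14 and lowered 3, where 42.1% of all genes were called, with IRF1 up from 11.03 to 24.7 CPM and CXCL1 down from 6.82 to 3.31 CPM. With Dex, HP1γ depletion raised 4 of 14 and lowered 2 (24% of all genes called), and PRMT5 depletion raised 5 and lowered 1 (42.4%). In siHP1γ Dex, CXCL8 was at 35.3 against 11.9 CPM and CXCL1 at 19.4 against 6.13 CPM in siNS Dex.

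A further 7 target genes were not tested for want of counts. TNF and LTB, which encode the cytokines TNF and lymphotoxin-β, were listed at 0 in all 18 libraries, and IER3 had 9 counts in all. These 3 genes lie in the stretch of chromosome 6 from HLA-F to HLA-DPB1 (hg38, chr6:29722775-33089696), where 123 of 128 protein-coding genes (96.1%) had under 10 counts over the 18 libraries, against 29.5% of 18988 protein-coding genes elsewhere. The zeros of TNF, LTB and IER3 are therefore not read as levels. CCL2, outside that stretch, was also at 0, and VCAM1 had 2 counts.

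The GR gene and its direct targets served as a reference for the hormone. With Dex in siNS cells 5 of 6 rose, where 2.71% of all genes were called. TSC22D3, which encodes the anti-inflammatory protein GILZ, led them (19.0 to 236 CPM, log2 3.64 ± 0.11, SE, adjusted p = 2.14e-18). With Dex, 4 of 6 were lower in siHP1γ than in siNS cells (24% of all genes called), TSC22D3 at 134 CPM. In siPRMT5 Dex 5 of 6 were higher (42.4% of all genes called), TSC22D3 at 405 CPM. Before Dex, TSC22D3 already read 45.9, 42.1 and 40.7 CPM in siPRMT5 Eth and 19.8, 17.8 and 19.4 CPM in siNS Eth. In the interaction test 3 of 6 were called lower in siHP1γ cells (0.399% of all genes called). For siPRMT5 cells 1 of 6 was called, higher (3.8% of all genes called). The targets were picked as Dex-responsive genes, with earlier results of these data known. Their shares in the Dex and interaction tests are therefore not comparable with those of all genes, most of which did not respond to Dex. NFKBIA was higher than in siNS Dex in both depleted groups, with the limits given above for siHP1γ. It was also higher than in siNS without Dex, by 1.54-fold in siHP1γ and 1.26-fold in siPRMT5 cells. Its Dex response in siHP1γ cells was −0.37 relative to siNS (log2), which did not pass the interaction test (adjusted p = 0.128).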

How the data were processed

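Per the labels and the study's methods, RNA libraries (Lexogen kit) were sequenced, mapped to hg38 with Bowtie2 2.4.2 and counted per gene with HTSeq 0.9.1, and the authors deposited 1 table of raw counts per library. Bowtie2 does not split reads over introns, which can lower the counts of genes with short exons. The annotation and strand setting are not given in the sources used here. A deposited table of the authors' DESeq2 2.11.40.7 comparisons (mean counts, log2 fold changes, p-values) was not used. The 10 genes and the gene lists were chosen with earlier results of these data known. Counts were fitted with edgeR 4.0.16 in R 4.3.3 (filterByExpr, TMM, quasi-likelihood, 18 libraries, 6 condition means, 12 residual degrees of freedom), after the steps were tested on simulated data, and p-values were Benjamini-Hochberg adjusted over 15298 genes. A Dex response was called at adjusted p under 0.01 and 1.5-fold, other comparisons under 0.05. From the lists, at most the 2 largest increases and decreases among called genes averaging 5 CPM or more were named. Depth was 8682992 to 12472381 counts per library. Libraries of a group differed beyond sampling noise (chi-square per degree of freedom 2.1 to 12.3) and were kept separate. Untested genes TNF, LTB, IER3, CCL2 and VCAM1 were named after their values were seen.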

Additional observations from a re-analysis of the deposited data

Results flagged for a closer look

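The response of TNFAIP2 to Dex differed between siPRMT5 and siNS cells in the interaction test of edgeR, by −0.55 (log2, adjusted p = 0.00476). It was the one gene of the 10 with such a difference. The log2 responses were −0.47 in siPRMT5 cells and 0.08 in siNS cells. Over 25 alternatives the difference ranged from −0.58 to −0.49 and remained past the threshold in each. TNFAIP2 overlaps genes on the opposite strand, and how far their reads enter its counts was not tested.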

How the results depend on the processing

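For the 10 genes, 46 results were past the threshold and 64 were not, and each was read again under 25 or 27 alternatives. For the Dex responses these include a fold limit of 2 and no fold limit. Those rules change the call and not the fit, so they cannot change a sign. None of the 46 changed sign, and 16 of them lost the call in at least 1 alternative. Of the 64, 13 gained a call and 12 changed sign in at least 1 alternative. Counts of called genes among the 10 moved as follows. A fold limit of 2 left 1 in siHP1γ and 3 in siPRMT5 cells for the Dex response. Library size alone gave 5 for HP1γ depletion with Dex, and no count filter gave 1 for the siHP1γ interaction. Leaving out single libraries gave 0 to 1 for that interaction and 2 to 7 for siPRMT5 against siHP1γ without Dex, where fitting only the compared libraries gave 9, adding NFKB2 (adjusted p = 0.0481) and TNIP1 (0.0232). The causes were not tested. Over all genes, the Dex calls went from 414, 255 and 832 (siNS, siHP1γ, siPRMT5) to 194, 106 and 373 at a fold limit of 2 and to 1402, 849 and 2449 without one. The siHP1γ interaction went from 61 genes to 374 with no count filter, 289 with DESeq2, 94 with the replicate block and 20 to 186 without single libraries, and the siPRMT5 interaction from 582 to 319 to 897 without single libraries.

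Deviations of same-numbered libraries were weakly correlated (−0.131 to 0.172), and in 0 comparisons were all 3 correlations over 0.1. However, 10 of 18 libraries were closest to a library of their own number. These values do not settle whether same-numbered libraries are paired. With the replicate block, 3, 3 and 6 of the 10 genes were called for Dex in siNS, siHP1γ and siPRMT5 cells, the added gene being RELB, and the other comparisons kept their counts. Depth limits RELB most, with 80 to 262 counts per library.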
